A study of Drosophila melanogaster with 12 samples.

Results

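The Dpr and DIP genes are a family of Drosophila genes for synaptic recognition proteins, and their transcripts were measured here in fly heads after knockdown (KD) of PIG-A. The members were every row of the count table whose symbol was dpr followed by a number or DIP followed by a Greek letter, which gave 32 genes (21 Dpr and 11 DIP) of 17737 rows. The rule used names only and no measured value.

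Dpr (defective proboscis extension response) and DIP (Dpr-interacting protein) genes encode small cell-surface proteins of the immunoglobulin superfamily. A Dpr on one neuron binds particular DIPs on another, and these pairings take part in the choice of synaptic partners and in the survival of neurons in the visual system and at the neuromuscular junction. Several of them are held in the membrane by a glycosylphosphatidylinositol (GPI) anchor, and PIG-A encodes an enzyme of the first step of GPI anchor synthesis. RNA sequencing measures the transcripts and not the amount of protein at the cell surface.

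RNA came from whole heads, with 3 libraries in each of 4 groups, which the labels name as biological replicates. Neuron KD flies carried elav-GAL4, a driver active in neurons, with a PIG-A RNAi transgene (BDSC 62696), and neuron control flies carried elav-GAL4 with AttP (BDSC 36304). Glia KD flies carried repo-GAL4, a driver active in glia, with the same RNAi transgene, and glia control flies carried repo-GAL4 with the same AttP strain. The labels gave an age of 3 to 5 days and 5 to 10 heads for each library. The study's methods differed from the labels and described 10 heads of male flies aged 3 days. No fly received a treatment. Each driver switches on the RNAi in its own cells while RNA came from the whole head, so a change confined to those cells would be diluted. The elav-GAL4 and repo-GAL4 flies are different stocks, so the driver and the genetic background cannot be told apart. The p-values below measure the spread between these libraries.

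The 12 libraries held 20694850 to 31893782 counts over genes, with counts for 11995 to 12528 genes. PIG-A, the targeted gene, had 2.98, 2.54 and 3.05 CPM (counts per 1e+06 counts of a library) in neuron KD heads, against 3.75, 5.19 and 3.62 CPM in neuron control heads. All 3 neuron KD libraries lay below the neuron controls, with a log2 fold change of -0.55 ± 0.20 (SE, adjusted p = 0.284 by edgeR's quasi-likelihood test). In glia KD heads PIG-A had 3.99, 4.88 and 5.28 CPM, against 4.81, 4.86 and 4.84 CPM in glia control heads, so that the groups overlapped (log2 fold change -0.04 ± 0.16, edgeR adjusted p = 0.906). The knockdown was therefore not visible above the spread in glia KD heads. Neuron KD library 3 and glia control library 3 stood apart from the others. Their summed level of 9 muscle markers was 19280 and 20320 CPM, against 3740 to 5724 CPM in the other 10 libraries, and none of the 9 markers was at 0. Yp1, a yolk protein gene of the female fat body, had 16900 to 82800 CPM across the libraries, although the methods described males. A list of 6 sex markers held Yp1, Yp2, Yp3 and fit, and roX1 and roX2 as its male markers. In neuron KD library 3 the list summed to 86750 CPM. Yp1, Yp2, Yp3 and fit had 39100, 23500, 23800 and 351 CPM there, so roX1 and roX2 made up little of the sum. The sex of the flies was not tested.

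All 32 Dpr and DIP genes had counts in every library. Levels of different genes were compared as CPM per kilobase of annotated exon, averaged over the 12 libraries. On this scale dpr7 (31.8), dpr12 (31.4) and dpr21 (24.6) were the highest members, and their ranges over libraries overlapped, at 25.2 to 42.7 for dpr7, 26.0 to 36.2 for dpr12 and 18.8 to 36.9 for dpr21. dpr20 (17.7), dpr4 (16.0), dpr18 (15.3) and dpr19 (14.9) followed. Between 13.7 and 8.03 CPM per kb lay, in falling order, dpr9, dpr8, dpr11, dpr14, dpr1, dpr3, dpr5, dpr10 and dpr13. The lowest Dpr genes were dpr17 (7.64), dpr15 (6.26), dpr16 (5.30), dpr2 (4.03) and dpr6 (3.35).

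The products of the DIP genes are the partners of the Dprs. DIP-gamma (10.4 CPM per kb) and DIP-epsilon (10.1 CPM per kb) were the highest, followed by DIP-theta at 8.22, DIP-kappa at 6.05, DIP-beta at 5.71, DIP-eta at 5.18 and DIP-zeta at 5.00 CPM per kb. DIP-delta (3.44), DIP-lambda (3.31), DIP-alpha (1.04) and DIP-iota (0.218) were the lowest DIPs, and the last 3 of these were also the lowest of the whole family. The median member was at 8.33 CPM per kb, against 11.2 CPM per kb for the 10257 genes tested over the 12 libraries. The annotated exons of dpr21 add up to only 0.993 kb, 846 bp of it coding, so its level per kb depends on how complete its model is.

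**Figure D1:**
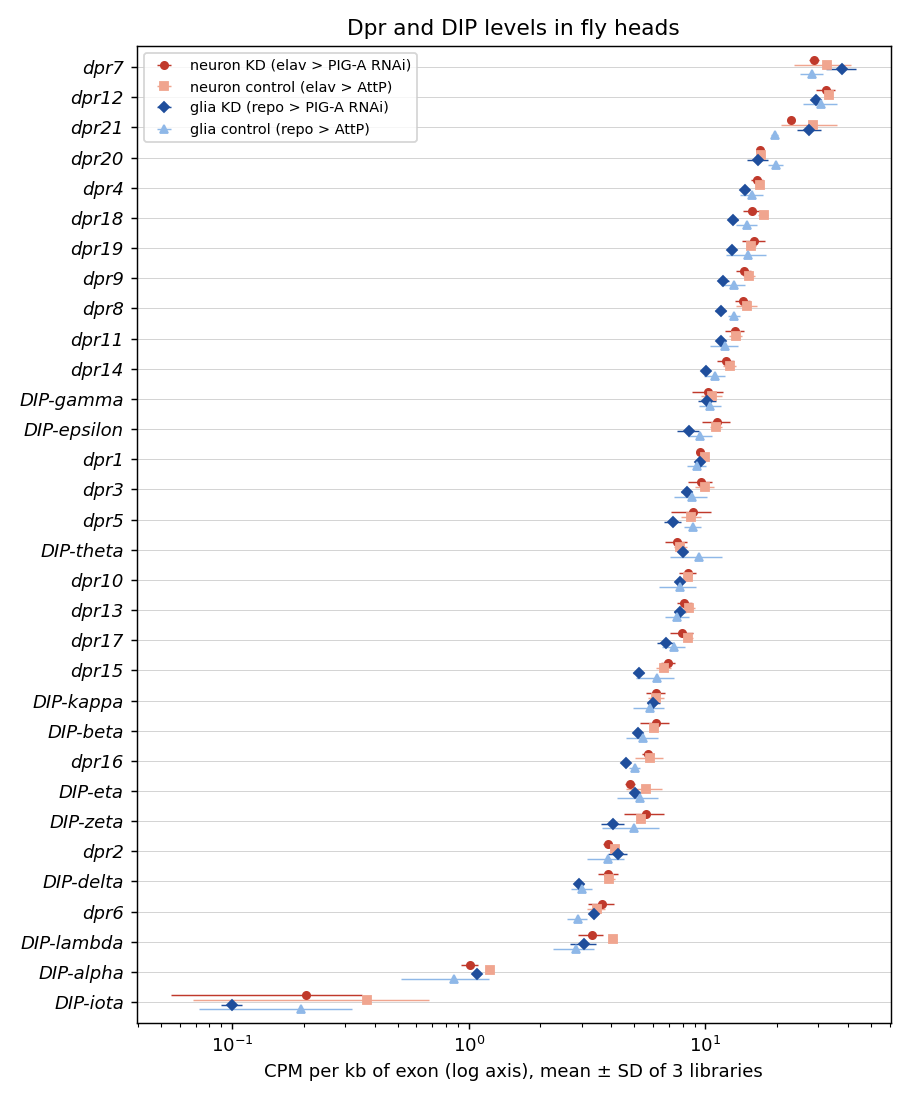
Levels of the 32 Dpr and DIP genes, in CPM per kb of exon on a log axis, as the mean and SD of 3 libraries in each of the 4 groups, with the highest member at the top. dpr7 and dpr12 averaged 31.8 and 31.4 CPM per kb over all libraries and DIP-iota 0.218, while the 4 groups lay close together for most members.

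The members differed more from each other, on the scale per kb, than any single member differed between libraries. The highest library was 1.2 times the lowest for dpr1, 1.26 times for dpr4 and 2.62 times for DIP-alpha. The median of this ratio was 1.47 over the members, against 1.66 over the genes tested. Within groups, the median SD on the log2 scale was 0.127 for the members and 0.153 for the genes tested. DIP-iota had only 2 to 19 counts per library and a ratio of 12.0, so its changes could not be measured at this depth. dpr12, at the other end, had 3124 to 5192 counts per library.

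The family was made of long genes. By the Ensembl annotation (release 115) of the same Release 6 assembly, the median member spanned 32.5 kb, against 2.16 kb for the 13834 protein-coding genes of the table. The largest intron had a median of 12.3 kb in the members, against 0.129 kb in all protein-coding genes. DIP-lambda, at 379 kb, was the longest member, and dpr19, at 3.74 kb, was the shortest. The members lay on every major chromosome arm, with 9 on 2L, 5 on 2R, 4 on 3L, 8 on 3R and 5 on X, and dpr7 alone on chromosome 4. Exons of 6 members overlapped exons of another gene, and the largest shares were 15.7% of exon length for dpr4, with a non-coding antisense gene, and 12.6% for DIP-theta, with a non-coding gene on the same strand. How reads in such overlaps were assigned is not given in the sources used here, so dpr4 and DIP-theta are uncertain.

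The first comparison asked which transcripts changed when PIG-A was knocked down in neurons. No Dpr or DIP gene passed the 2 limits taken from the study, which were 0.05 for the adjusted p and 1.5-fold for the size of the change in either direction. The study applied these limits with DESeq2, and it reported more genes in each knockdown than edgeR called here. Over all genes 16 of 9983 passed by edgeR, which is 0.16%, so a count of 0 among 32 members was close to the background. At an unadjusted p under 0.05 there were 2 members, DIP-alpha and DIP-lambda (6.25% of the members), against 14.4% of all genes tested, and DESeq2 called 0 members and 2.64% of all genes. The 95% interval of the change lay within 1.5-fold in both directions for 28 of 32 members, against 64.3% of the genes tested. The 4 members with wider intervals were dpr7, dpr21, DIP-lambda and DIP-iota.

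**Figure D2:**
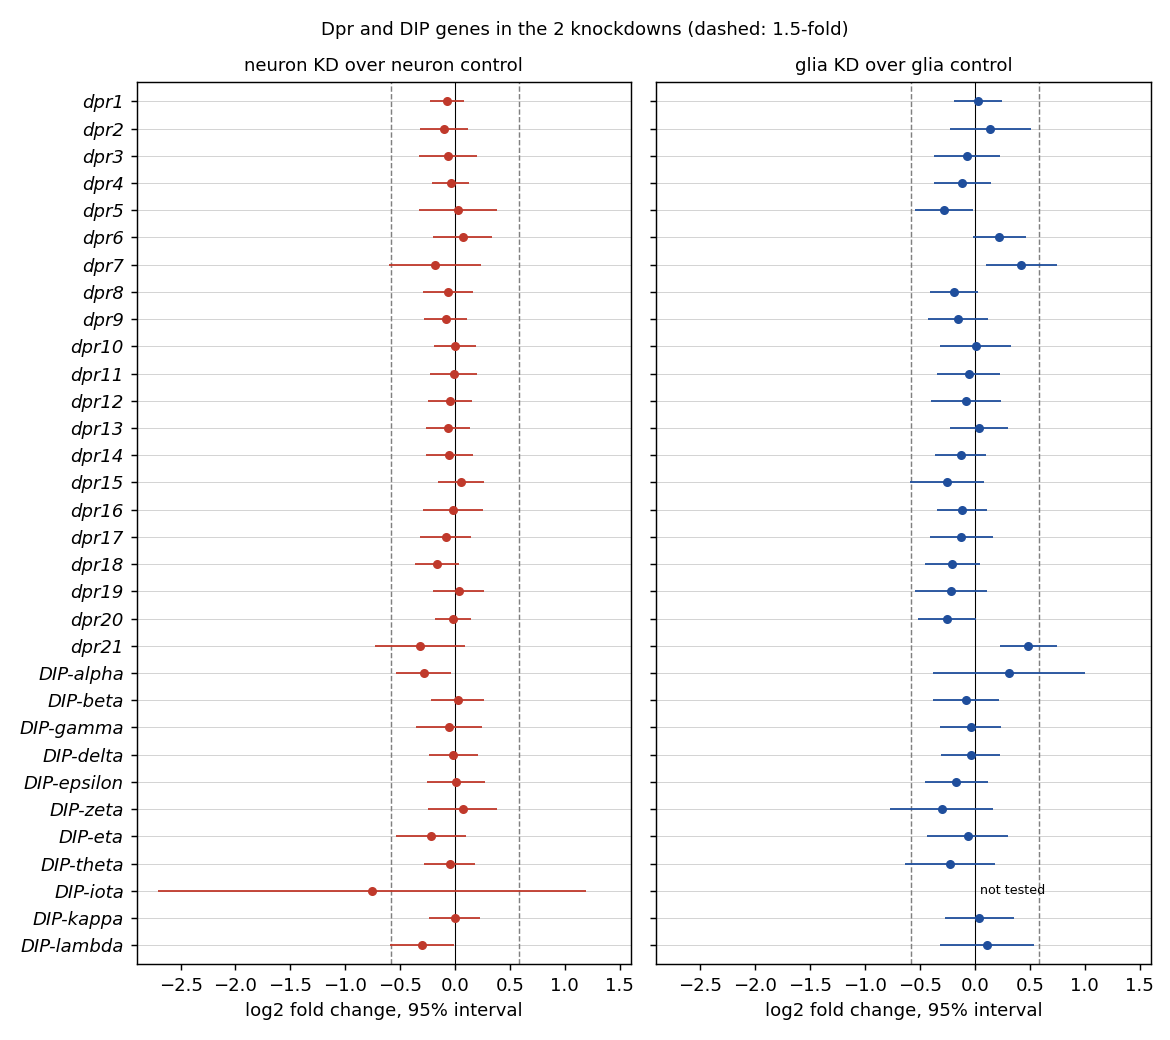
Log2 fold change of each Dpr and DIP gene with its 95% interval, for neuron KD over neuron control (left) and glia KD over glia control (right), with dashed lines at 1.5-fold. Of the intervals, 28 of 32 in neuron KD and 25 of 31 in glia KD lie between the dashed lines, and DIP-iota, at 2 to 19 counts, was not tested in glia KD.

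DIP-alpha had the smallest p of the family in neuron KD heads. It encodes a receptor on motor neurons and on lamina and medulla neurons of the visual system, and it lies on chromosome X (3507245 to 3571649, minus strand, dm6). It had 8.16, 9.42 and 9.54 CPM in neuron KD heads, against 11.3, 10.9 and 10.8 CPM in neuron control heads. All neuron KD libraries lay below all neuron control libraries. The log2 fold change was -0.29 ± 0.11 (SE, n = 3 each), with an unadjusted p of 0.0321 and an adjusted p of 0.303 by edgeR's quasi-likelihood test. A change of this size did not pass.

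DIP-lambda, on chromosome 2R (326768 to 705848, plus strand), had 7.67, 7.42 and 9.24 CPM in neuron KD heads, against 9.71, 10.4 and 9.86 CPM in neuron control heads. The groups did not overlap, and the log2 fold change was -0.30 ± 0.12 (edgeR adjusted p = 0.328). dpr18, on chromosome X (16063738 to 16070304, plus strand), had 37.7, 41.5 and 44.5 CPM in neuron KD heads, against 48.8, 44.8 and 45.1 CPM in neuron control heads. These groups touched without overlapping, with a log2 fold change of -0.17 ± 0.08 (edgeR adjusted p = 0.416). In all, 3 members (DIP-alpha, DIP-lambda and dpr18) had groups that did not overlap, all lower in neuron KD, which is 9.38% of the members against 11.0% of all genes for the same direction.

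Small shifts to lower values were common in the family. Of 32 members, 25 had a negative log2 fold change in neuron KD heads (78.1%, against 49.4% of all genes) and 7 a positive one (21.9%, against 50.6%), and the median was -0.05, against 0.00 over all genes. The shift depended on single libraries. Neuron KD library 1 was the lowest of its group for 23 of 32 members, and without it 17 members were lower and the median was 0.00 to 2 decimals. Without neuron KD library 3, one of the 2 libraries with high muscle markers, 29 members were lower and the median was -0.09. Without neuron control library 2, 20 were lower.

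The summed level of the family was also set out by library. Dpr and DIP transcripts together had 1048, 1105 and 1189 CPM in neuron KD heads, against 1152, 1179 and 1142 CPM in neuron control heads. Neuron KD library 3 was the highest of all and library 1 the lowest of these 6. The 12 neuron markers, none of which was at 0, summed to 4323, 4392 and 5515 CPM in neuron KD heads, against 4598, 4345 and 4461 CPM in neuron control heads. Neuron KD library 3 was again the highest. The single markers did not move together, with 5 of the 12 higher and 7 lower in neuron KD (median log2 fold change -0.01). Among them brp had 694, 776 and 970 CPM in neuron KD heads, against 525, 540 and 523 CPM in neuron control heads. In contrast, elav had 114, 113 and 113 CPM in neuron KD heads, against 130, 124 and 121 CPM in neuron control heads. The 8 fat body markers, none at 0, summed to 202104, 160715 and 96990 CPM in neuron KD heads, against 103350, 74310 and 102308 CPM in neuron control heads. The neuron KD libraries thus had the reverse order for the fat body sum and the family sum, and 6 of the 7 fat body markers tested were higher in neuron KD (median log2 fold change 0.47, 0 called). Most of the fat body sum came from Yp1, Yp2 and Yp3, at 82800, 50200 and 53600 CPM in neuron KD library 1. These yolk protein genes were also in the list of sex markers, so the sum is not a measure of fat body alone. The part of either marker list in the shift was not tested, and in bulk heads fewer neurons and less RNA per neuron cannot be told apart.

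**Figure D3:**
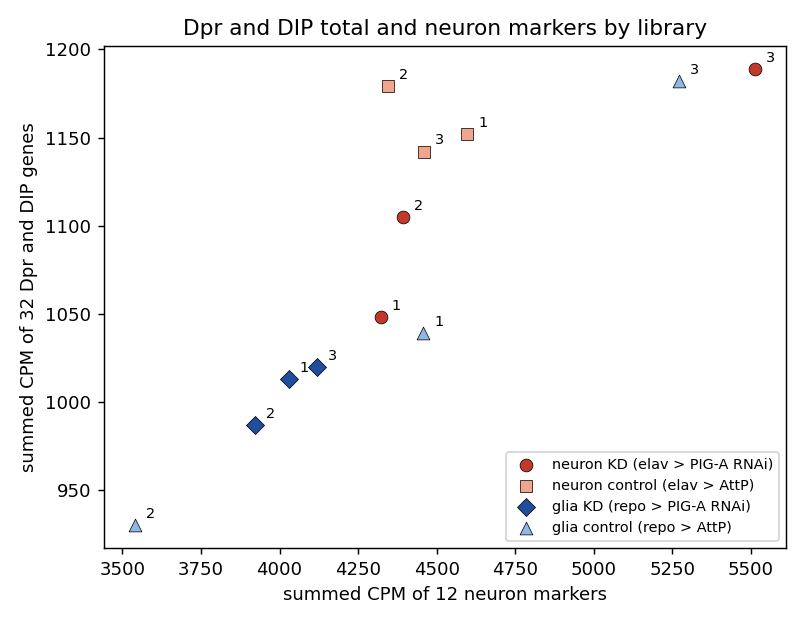
Summed CPM of the 32 Dpr and DIP genes against summed CPM of 12 neuron markers in each library, numbered by replicate within its group. Glia control library 2, at 930 and 3539 CPM, is the lowest on both axes, and neuron KD library 3, at 1189 and 5515 CPM, is the highest on both.

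The second comparison asked the same of knockdown in glia. Of 31 members tested (DIP-iota was too low), none passed the thresholds, while 358 of 9951 genes did, which is 3.6%. At an unadjusted p under 0.05 there were 3 members, dpr21, dpr7 and dpr5 (9.68%), against 22.3% of all genes, and DESeq2 called 0 members and 6.77% of all genes. The 95% interval lay within 1.5-fold for 25 of 31 members, against 52.2% of all genes. Wider intervals were found for dpr7, dpr15, dpr21, DIP-alpha, DIP-zeta and DIP-theta.

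dpr21 came nearest to the threshold. It lies on chromosome 2R (3066499 to 3191011, plus strand) and had 28.4, 29.9 and 23.7 CPM in glia KD heads, against 20.0, 18.6 and 19.8 CPM in glia control heads. All glia KD libraries lay above all glia control libraries. The log2 fold change was 0.49 ± 0.11, with an unadjusted p of 0.00306 and an adjusted p of 0.0596 by edgeR. DESeq2 gave it an adjusted p of 0.019, but its change stayed below 1.5-fold.

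dpr7, on chromosome 4 (247124 to 253329, minus strand), had 60.5, 63.7 and 48.0 CPM in glia KD heads, against 38.2, 42.2 and 47.7 CPM in glia control heads. The groups were separated only by the small gap between glia KD library 3 and glia control library 3. The log2 fold change was 0.42 ± 0.14 (edgeR adjusted p = 0.128). dpr5, on chromosome 3R (11499984 to 11505951, plus strand), moved the other way, with 12.3, 14.3 and 14.2 CPM in glia KD heads, against 16.1, 15.4 and 18 CPM in glia control heads. Its groups did not overlap either, at a log2 fold change of -0.28 ± 0.11 (edgeR adjusted p = 0.205). Groups failed to overlap for 6 members in all (19.4%, against 29.5% of all genes), with dpr6, dpr7 and dpr21 higher and dpr5, dpr8 and dpr14 lower in glia KD. Each direction held 9.68% of the members, against 15.9% of all genes for higher and 13.6% for lower.

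Across the family 21 of 31 members had a negative log2 fold change in glia KD heads (67.7%, against 52.7% of all genes) and 10 a positive one (32.3%, against 47.3%). The median was -0.08, against -0.02 over all genes. The glia control libraries differed strongly among themselves. Glia control library 2 was the lowest of its group for 27 of 32 members, and glia control library 3, the other library with high muscle markers, was the highest for 28 of 32. Without library 3 the median was 0.03 and 17 members were higher, while without library 2 it was -0.17 and 7 were higher.

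Dpr and DIP transcripts together had 1013, 987 and 1020 CPM in glia KD heads, against 1039, 930 and 1182 CPM in glia control heads. The glia KD libraries lay inside the range of the glia control libraries. Neuron markers had 4029, 3921 and 4119 CPM in glia KD heads, against 4457, 3539 and 5273 CPM in glia control heads. The glia control libraries had the same order for both sums. Fat body markers had 126252, 190792 and 116396 CPM in glia KD heads, against 45290, 128482 and 82560 CPM in glia control heads. In both groups library 2 had the highest fat body sum and the lowest family sum, and 6 of the 7 fat body markers tested were higher in glia KD (median log2 fold change 0.64, 0 called). Yp1, Yp2 and Yp3 again made up most of the fat body sum, at 69000, 45100 and 56200 CPM in glia KD library 2. The part of the neuron and fat body markers in the members' values was not tested.

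Known binding partners gave further values. DIP-alpha binds Dpr6 and Dpr10, and these pairs act in the visual system and at the neuromuscular junction. dpr6, on 3L (9974651 to 10139360, plus strand), had 22.0, 20.8 and 26.4 CPM in neuron KD heads, against 22.9, 23.2 and 19.7 CPM in neuron control heads. The groups overlapped (log2 fold change 0.07 ± 0.11). In glia KD heads it had 21.6, 20.3 and 21.8 CPM, against 17.4, 17.0 and 20.2 CPM in glia control heads, and the groups were just separate (0.22 ± 0.10, edgeR adjusted p = 0.26).

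dpr10, its neighbour on 3L (10147454 to 10186108, minus strand), had 28.6, 28.3 and 32.7 CPM in neuron KD heads, against 28.4, 30.1 and 31.0 CPM in neuron control heads. It had 27.7, 27.2 and 28.3 CPM in glia KD heads, against 27.3, 22.7 and 32.6 CPM in glia control heads. The groups overlapped in both knockdowns, and the log2 fold changes were 0.00 ± 0.08 and 0.01 ± 0.14. DIP-alpha had 9.43, 10.1 and 9.52 CPM in glia KD heads, against 8.49, 4.31 and 10.5 CPM in glia control heads. The log2 fold change was 0.31 ± 0.30, and it was 0.02 without glia control library 2, whose 110 counts were the fewest of the gene.

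DIP-gamma and its partner Dpr11 mark a subset of photoreceptors and their targets in the medulla. DIP-gamma, on 3R (28925004 to 28970372, minus strand), had 27.5, 37.0 and 31.2 CPM in neuron KD heads, against 36.3, 33.6 and 29.5 CPM in neuron control heads. In glia KD heads it had 34.4, 28.9 and 32.1 CPM, against 33.5, 28.7 and 35.4 CPM in glia control heads. Both pairs of groups overlapped, with log2 fold changes of -0.06 ± 0.13 and -0.04 ± 0.12. dpr11, on 3R (6529169 to 6593330, minus strand), had 58.2, 59.0 and 68.1 CPM in neuron KD heads, against 61.7, 66.2 and 58.5 CPM in neuron control heads. It had 55.0, 51.9 and 55.6 CPM in glia KD heads, against 57.9, 47.8 and 63.0 CPM in glia control heads. Its log2 fold changes, -0.01 ± 0.09 and -0.06 ± 0.12, were also smaller than their errors.

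DIP-delta and Dpr12 meet in the mushroom body, the centre for olfactory memory. DIP-delta, on 3L (5424109 to 5442399, plus strand), had 16.8, 18.9 and 20.4 CPM in neuron KD heads, against 18.9, 19.8 and 17.9 CPM in neuron control heads. It had 14.2, 13.5 and 14.6 CPM in glia KD heads, against 15.0, 12.8 and 15.5 CPM in glia control heads. The log2 fold changes of -0.02 ± 0.10 and -0.04 ± 0.12 were within error. dpr12, on 2R (5804712 to 5860831, plus strand), had 138, 150 and 166 CPM in neuron KD heads, against 153, 160 and 157 CPM in neuron control heads. In glia KD heads it had 137, 132 and 143 CPM, against 143, 122 and 170 CPM in glia control heads. Its log2 fold changes were -0.05 ± 0.09 and -0.08 ± 0.14, and its groups overlapped in both.

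Members described so far in one knockdown had these values in the other. dpr7 had 41.5, 43.6 and 45.6 CPM in neuron KD heads, against 42.9, 64.6 and 40.3 CPM in neuron control heads. Its neuron KD libraries lay inside the range of the neuron control libraries, and its log2 fold change of -0.18 ± 0.18 was 0.07 without neuron control library 2, the highest of all 12. dpr5 had 13.4, 16.6 and 19.8 CPM in neuron KD heads, against 14.5, 17.4 and 16.9 CPM in neuron control heads, and the groups overlapped (0.02 ± 0.15).

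DIP-lambda had 8.45, 7.56 and 6.57 CPM in glia KD heads, against 6.07, 6.27 and 8.58 CPM in glia control heads. The groups overlapped, at a log2 fold change of 0.11 ± 0.18. dpr18 had 33.2, 33.8 and 36.1 CPM in glia KD heads, against 40.7, 34.9 and 42.9 CPM in glia control heads. Glia control library 2 lay among the glia KD libraries, and the log2 fold change was -0.20 ± 0.11 (edgeR adjusted p = 0.31).

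No other member passed in either knockdown. Among the other Dpr genes, the log2 fold change in neuron KD ran between -0.10 for dpr2 and 0.06 for dpr15, leaving out dpr21 (-0.32) and dpr7 (-0.18). Among the other DIP genes it ran between -0.21 for DIP-eta and 0.07 for DIP-zeta, with DIP-iota at -0.76 and an interval of -2.71 to 1.19. In glia KD the members without values by library lay between -0.30 for DIP-zeta and 0.14 for dpr2.

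The difference between the knockdowns was tested with an interaction term over all 12 libraries. No member passed, against 309 of 10257 genes (3.01%). At an unadjusted p under 0.05 there were 2 members, dpr21 and dpr7 (6.25%), against 21.1% of all genes. dpr21 had a difference of -0.81 ± 0.22 on the log2 scale (neuron KD change minus glia KD change, edgeR adjusted p = 0.0689), and dpr7 one of -0.61 ± 0.24 (edgeR adjusted p = 0.187). dpr21 had 22.4, 22.6 and 23.1 CPM in neuron KD heads, against 25.7, 36.6 and 22.4 CPM in neuron control heads. The groups overlapped at the low end, and neuron control library 2 stood above the rest.

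DESeq2 called dpr21 in this test (log2 difference -0.80, adjusted p = 0.0216), along with 6.38% of all genes, and it called no other member. Over the 18 alternative fits its adjusted p lay between 0.0216 and 0.178. Without neuron control library 3 edgeR called it (-0.95, adjusted p = 0.0472), and without neuron control library 2 the difference was -0.57. The other genes near dpr21, in the first 5 Mb of 2R, had a median difference of -0.47 (29 of 35 lower), as set out below. The interval of the difference lay within 1.5-fold for 20 of 32 members, against 36.4% of all genes.

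The controls of the drivers were compared to give the members' levels in the absence of the RNAi. No member passed, against 405 of 10028 genes (4.04%). At an unadjusted p under 0.05 there were 4 members, DIP-delta, DIP-lambda, dpr21 and dpr6 (12.5%), against 19.6% of all genes, and DESeq2 called 0 members and 5.85% of all genes. The members leaned to higher values in elav-GAL4 controls, with 29 of 32 positive (90.6%, against 48.4% of all genes), 3 negative (9.38%, against 51.6%) and a median log2 fold change of 0.16, against -0.01 over all genes. Other lists leaned in the same comparison. Beat and Side genes, another family of neuronal receptors, were higher for 17 of 21 (median 0.09) and other recognition genes for 27 of 39 (median 0.10). Neuron markers were higher for 8 of 12 (median 0.06) and photoreceptor markers for 4 of 8 (median -0.13). Glial markers were lower for 9 of 10 (median -0.24) and muscle markers for 9 of 9 (median -1.24). The muscle sum was 4645, 4713 and 4939 CPM in elav-GAL4 controls, against 4332, 4200 and 20320 CPM in repo-GAL4 controls. Only glia control library 3 lay above the elav-GAL4 controls in this sum. The part of these markers in the members' lean was not tested. Without glia control library 2 the members' median was 0.08 and 20 members were higher. The 95% interval lay within 1.5-fold for 25 of 32 members (78.1%, against 52.3% of all genes).

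DIP-delta averaged 18.9 CPM in elav-GAL4 controls and 14.4 CPM in repo-GAL4 controls, by the values given above, with a log2 fold change of 0.39 ± 0.12 (edgeR adjusted p = 0.117). DIP-lambda had 9.71, 10.4 and 9.86 CPM in elav-GAL4 controls, against 6.07, 6.27 and 8.58 CPM in repo-GAL4 controls. The groups did not overlap, and the log2 fold change was 0.53 ± 0.16 (edgeR adjusted p = 0.131). Without glia control library 3 it was 0.69 and was called (edgeR adjusted p = 0.00821), and its adjusted p over the 12 alternative fits lay between 0.00821 and 0.338. Groups did not overlap for 9 members (28.1%, against 27.2% of all genes), of which 8 (dpr8, dpr9, dpr17, dpr18, dpr21, DIP-alpha, DIP-delta and DIP-lambda) were higher in elav-GAL4 controls (25.0%, against 13.8% of all genes) and 1, dpr20, was lower (3.12%, against 13.4%).

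The positions of dpr7, dpr21 and DIP-lambda were then looked at. dpr7 lies on chromosome 4, a small and mostly heterochromatic chromosome, and dpr21 and DIP-lambda lie in the first 5 Mb of 2R, next to the centromere. These regions were chosen after the values of the members had been seen, and the values that follow are a description. In glia KD the median log2 fold change of the other genes was 0.21 on chromosome 4 (67 of 89 higher) and 0.28 in the first 5 Mb of 2R (27 of 33 higher), against -0.02 over 9709 genes elsewhere. dpr7 (0.42) and dpr21 (0.49) lay above the upper quartiles of their neighbours, 0.40 and 0.42, and DIP-lambda (0.11) lay below its neighbours' median.

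In neuron KD the same regions leaned the other way. The median was -0.12 on chromosome 4 (64 of 91 lower) and -0.24 in the first 5 Mb of 2R (27 of 32 lower), against 0.00 elsewhere. dpr7 (-0.18), dpr21 (-0.32) and DIP-lambda (-0.30) all lay between their neighbours' lower quartiles, -0.20 and -0.34, and medians. Both knockdowns were set against their own controls. In the controls the genes of these regions were higher in elav-GAL4 heads than in repo-GAL4 heads, with medians of 0.27 (75 of 91) and 0.32 (29 of 32). For the difference between the knockdowns the medians were -0.38 (72 of 92 lower) and -0.47 (29 of 35 lower), against 0.02 elsewhere. dpr7 (-0.61) and dpr21 (-0.81) lay below their neighbours' lower quartiles, -0.58 and -0.73, and DIP-lambda (-0.41) lay above its neighbours' median.

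**Figure D4:**
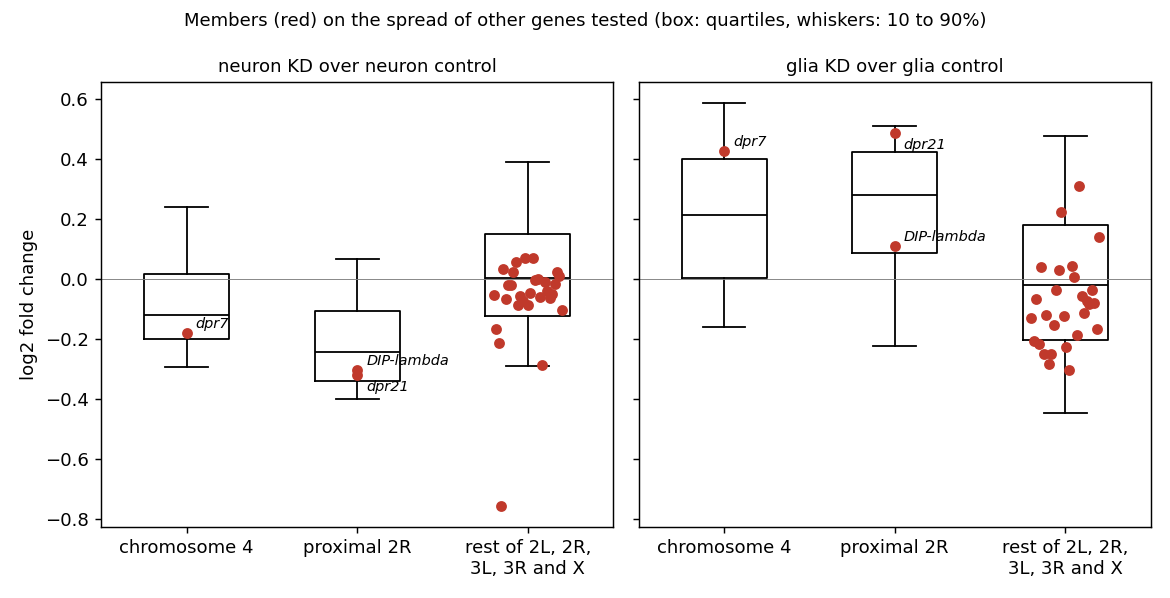
Log2 fold change of the members (red points) over boxes that show the quartiles, and whiskers the range from 10 to 90%, of the other genes tested on chromosome 4, in the first 5 Mb of 2R (proximal 2R) and in the rest of the major arms. In glia KD the medians of the other genes are 0.21, 0.28 and -0.02, and in neuron KD they are -0.12, -0.24 and 0.00.

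The libraries differed in this pattern, and the members did not all follow it. Against the mean of 12 libraries on the log2 scale, dpr21 deviated by -0.10, -0.09 and -0.05 in neuron KD libraries and by 0.10, 0.60 and -0.10 in neuron control libraries. It deviated by 0.24, 0.31 and -0.02 in glia KD libraries and by -0.26, -0.36 and -0.27 in glia control libraries. The high libraries were neuron control 2 and glia KD 1 and 2, and all 3 glia controls were low. The 35 other genes of the first 5 Mb of 2R had median deviations of 0.01, -0.11 and -0.15 in neuron KD libraries and of 0.07, 0.26 and -0.08 in neuron control libraries. Their deviations were 0.12, 0.28 and -0.05 in glia KD libraries and -0.20, -0.05 and -0.19 in glia control libraries. Their lowest libraries thus included neuron KD 2 and 3, which were below glia control 2. DIP-lambda deviated by -0.06, -0.11 and 0.19 in neuron KD libraries and by 0.26, 0.35 and 0.28 in neuron control libraries. It deviated by 0.07, -0.08 and -0.27 in glia KD libraries and by -0.38, -0.33 and 0.09 in glia control libraries. It ran against its neighbours in sign in neuron KD library 3, neuron control library 3, glia KD library 2 and glia control library 3, as well as in neuron KD library 1. The 92 other genes of chromosome 4 were likewise highest in neuron control library 2 (0.19) and glia KD library 2 (0.15) and lowest in glia control libraries 1 and 2 (-0.18 and -0.25). The part of position in the values of dpr7, dpr21 and DIP-lambda was not tested.

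**Figure D5:**
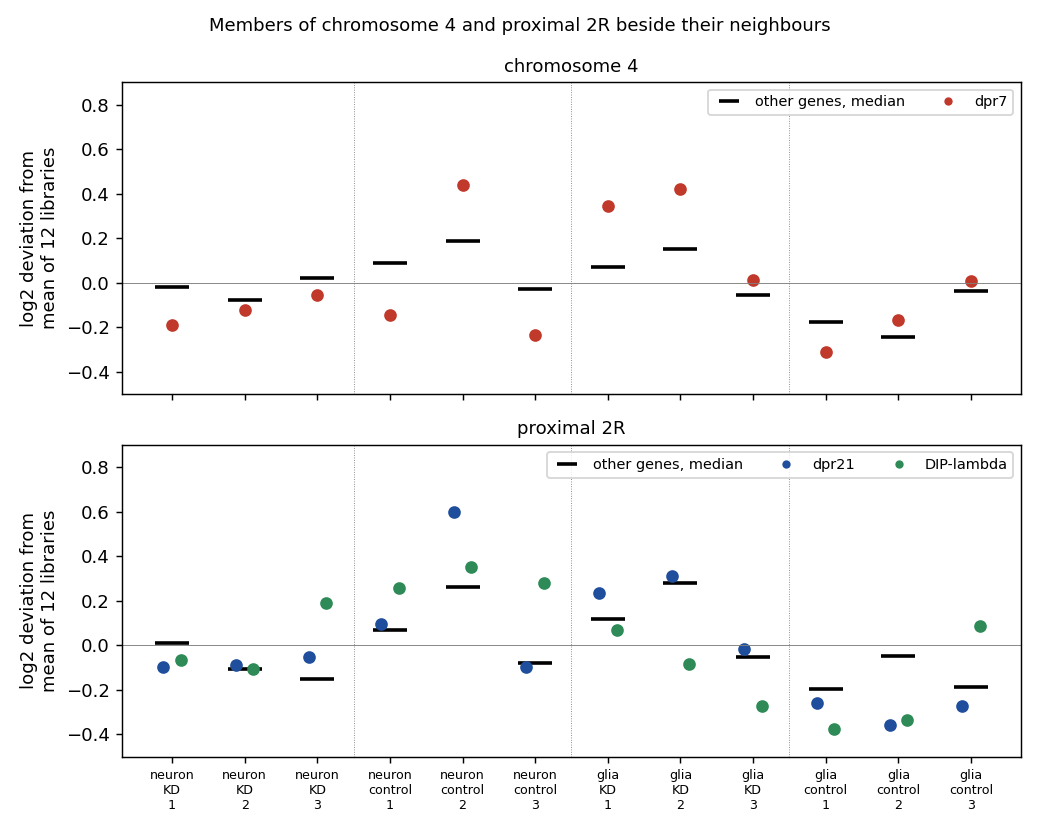
Deviation of dpr7, dpr21 and DIP-lambda (points) and of the median of the other genes of the same region (bars) from the mean of the 12 libraries, on the log2 scale, for each library. Neuron control library 2 is the highest for dpr7 (0.44) and dpr21 (0.60), and the medians of the other genes there are 0.19 and 0.26.

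Other recognition genes of neurons were set beside the family. The Beat and Side genes encode another network of immunoglobulin receptors and ligands, and 21 of 22 were tested. None was called in either knockdown, in their difference or between the controls, against 0.16% to 4.04% of all genes. The medians in neuron KD and glia KD were -0.07 and -0.08. beat-Vb, a member of the Beat group, had 15.2, 15.2 and 14.8 CPM in glia KD heads, against 20.7, 20.3 and 20.6 CPM in glia control heads. Its groups were well apart, and its log2 fold change of -0.45 ± 0.08 passed the adjusted p (0.0356 by edgeR) but not the 1.5-fold limit.

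The list of other recognition genes, which held adhesion proteins such as Fas2, Dscam1 and the teneurins, had 39 of 42 members tested in each knockdown. None was called, against 0.16% and 3.6% of all genes, at medians of 0.02 in neuron KD and -0.02 in glia KD. cDIP, a secreted protein that binds several Dprs and DIPs, had 69.8, 28.2 and 27.9 CPM in neuron KD heads, against 27.2, 25.9 and 31.1 CPM in neuron control heads. Its log2 fold change of 0.58 ± 0.35 rested on neuron KD library 1 (edgeR adjusted p = 0.5). In glia KD heads cDIP had 25.0, 34.4 and 28.7 CPM, against 29.5, 35.4 and 20.6 CPM in glia control heads, and the groups overlapped (0.04 ± 0.21).

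Among 10 glial markers, 2 were called in glia KD heads, both higher, against 3.6% of all genes called. A positive log2 fold change was found for 8 of the 10 (median 0.24), against 47.3% of all genes. In neuron KD heads 8 of the 10 were also positive (median 0.11), against 50.6% of all genes. There 0 of the 10 were called, against 0.16% of all genes. Gli, a junction protein of barrier-forming glia, had 84.9, 86.8 and 78.4 CPM in glia KD heads, against 43.9, 38.7 and 44.9 CPM in glia control heads (log2 fold change 0.97 ± 0.10, edgeR adjusted p = 0.00972). alrm, a marker of astrocyte-like glia, had 152, 138 and 139 CPM in glia KD heads, against 77.4, 90.4 and 107 CPM in glia control heads (0.64 ± 0.13, edgeR adjusted p = 0.0444). Gli also differed between the knockdowns (-0.93 ± 0.12 on the log2 scale, neuron KD change minus glia KD change, edgeR adjusted p = 0.00438), as did wrapper, another of the glial markers (-0.64 ± 0.14, edgeR adjusted p = 0.0302). wrapper had 43.4, 41.5 and 34.9 CPM in neuron KD heads, against 51.2, 53.7 and 51.3 CPM in neuron control heads, and 62.4, 56.9 and 60.3 CPM in glia KD heads, against 51.3, 53.9 and 44.7 CPM in glia control heads. These were the 2 of the 10 markers called in the difference, against 3.01% of all genes. Of the 10 markers 7 had a negative difference, against 47.8% of all genes. The other 3 had a positive one, among them Tret1-1, a trehalose transporter of barrier glia (0.72 ± 0.24, edgeR adjusted p = 0.118). None of the 12 neuron markers was called in any of the 4 comparisons, against 0.16% to 4.04% of all genes. Their medians were -0.01 in neuron KD and -0.17 in glia KD. The muscle gene Act88F had 0.398, 0.17 and 0.238 CPM in elav-GAL4 controls, against 3.96, 4.59 and 11.3 CPM in repo-GAL4 controls. It was the only 1 of 9 muscle markers called there (-4.58 ± 0.55, elav-GAL4 over repo-GAL4, edgeR adjusted p = 0.00589). Its elav-GAL4 values were near the level of 3 counts, which is 0.0995, 0.102 and 0.143 CPM in these libraries, so the size of the change is uncertain.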

How the data were processed

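Total RNA of 12 head samples was made into TruSeq Stranded mRNA libraries. After trimming with seqtk and alignment to BDGP Release 6 (dm6) with Bowtie2, the authors deposited raw counts per gene. The counting tool and its use of strand are not given in the sources used here. A pair of further deposited tables hold the authors' own comparisons (fold changes and p-values) and were not used. The members and gene lists were chosen with earlier results of these data known.

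Counts were fitted with edgeR 4.0.16 (R 4.3.3): filterByExpr, TMM scaling and the two-sided quasi-likelihood F test, with Benjamini-Hochberg adjustment over all genes tested. Each knockdown was fitted with its own control, and the interaction with all 12 libraries. Calls required both an adjusted p no higher than 0.05 and a 1.5-fold change or more. The SE of an edgeR change was derived as its absolute log2 fold change divided by the square root of the F statistic. The 95% intervals used this SE and the t distribution with the degrees of freedom of the test. CPM values were TMM-scaled over the 12 libraries. Deviations used log2(CPM + 0.5). Symbols matched 17599 of 17737 rows. Alternatives were DESeq2 1.42.0, RLE scaling, other filters, one fit of 12 libraries, a replicate block and leaving out each library. A further setting was the main fit with calls made without the fold limit. Replicates differed by more than sampling noise (chi-square per gene 7.823 to 277.7). All members were named. Values by library were given for members with the 3 smallest p in each knockdown, for known binding pairs and for genes called in the lists, and also for beat-Vb, chosen after its values were seen. Tret1-1 was named in the same way. The code was tested on simulated data, where the interaction fit recovered fewer of the altered genes than the other fits. The pass mark for the interaction fit was lowered after an initial run had failed it.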

Additional observations from a re-analysis of the deposited data

How the results depend on the processing

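In 55 of 58 alternative settings, which included the main fits without the fold limit, 0 members were called. The exceptions were dpr21 in the difference between the knockdowns (1 member with DESeq2, and 0 to 1 when single libraries were left out) and DIP-lambda between the controls (0 to 1 when single libraries were left out). Leaving out neuron KD library 3 and glia control library 3 together, a choice made after seeing the data, moved the median difference between the knockdowns to -0.0899, against 0.0359. Medians over the members with single libraries left out ran from -0.09 to 0.00 in neuron KD, -0.17 to 0.03 in glia KD, -0.03 to 0.12 for the difference and 0.08 to 0.25 between the controls.

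Same-numbered libraries did not vary together (correlations of their deviations -0.15 to 0.15), so the numbers were not read as pairs. With a replicate block, 0 members were called in each comparison, the members' medians were -0.05, -0.07, 0.03 and 0.17, and 2, 212 and 205 genes were called over all genes in neuron KD, glia KD and the controls.

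Counts over all genes moved more. DESeq2 called 278 genes in neuron KD, 698 in glia KD, 686 for the difference and 650 between the controls. With no filter 49 were called in neuron KD, and with one fit of 12 libraries 30 in neuron KD and 538 in glia KD. Leaving out single libraries gave 1 to 199, 3 to 676, 130 to 485 and 92 to 805. The causes were not tested. A change under 1.5-fold could not be called under these limits, and DIP-iota was limited by its 2 to 19 counts.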
